A study of Mus musculus with 18 samples.

Results

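RNA-seq of striatal microglia from 18 mouse samples of 4 genotypes was read for 9 genes that code for ion channels of microglia. They are Kcnk13, Kcna3 and Kcnj2, which code for potassium channels, the proton channel gene Hvcn1, the cation channel genes Trpv2, Trpm2 and Trpm7, and Clic1 and Lrrc8a, which code for chloride or anion channel proteins. The members were picked by gene symbol, and the Ensembl identifiers of the count table were paired with symbols through GENCODE M21. All 9 were among the 55536 genes of the table, and all 9 reached at least 1 CPM (a count scaled to the library's size) in at least 1 sample of every comparison. WT mice (5 samples) carried neither mutation. Q175 mice (5 samples) were heterozygous for the Q175 knock-in allele, an expanded CAG repeat in the Huntington's disease gene Htt. Tyrobp-KO mice (3 samples) lacked both copies of Tyrobp, which codes for an adaptor of myeloid receptors, and Q175;Tyrobp-KO mice (5 samples) carried both mutations. All mice were on the C57Bl6/J background and adult. Both alleles were carried in every cell of the animal, so neither mutation was limited to microglia. Microglia were taken from dissociated striatum, the brain region most affected in Huntington's disease, with magnetic beads against CD11b, and the labels give 2 striata per sample. The groups differed in sex, with 1 female of 5 in WT, 2 of 3 in Tyrobp-KO, 4 of 5 in Q175 and 2 of 5 in Q175;Tyrobp-KO.

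Microglia hold a negative membrane potential and keep moving their processes through potassium efflux. Kcnk13 codes for THIK-1, the tandem-pore potassium channel that supports process surveillance and the potassium loss that precedes inflammasome activation. Kcna3 codes for a voltage-gated potassium channel of activated lymphocytes and microglia, and Kcnj2 for an inward rectifier that stabilises the resting potential. Hvcn1 codes for the voltage-gated proton channel, which carries out the charge and acid that the phagocyte NADPH oxidase leaves behind. Trpv2, Trpm2 and Trpm7 belong to the TRP family of cation channels. Trpm2 opens with ADP-ribose and oxidative stress, Trpm7 is a magnesium-permeable channel fused to a kinase, and Trpv2 passes calcium in macrophages and supports phagocytosis. Lrrc8a codes for the obligatory subunit of the volume-regulated anion channel, and Clic1 for a protein that is found in the cytosol and can insert into membranes as a chloride channel. Channel activity is also set by gating and trafficking, neither of which is measured by RNA-seq.

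The libraries held 11260410 to 29771983 counts each. Tyrobp, the deleted gene, was at 351 ± 126 CPM (SD, n = 5) in WT, 283 ± 56.3 (n = 5) in Q175, 19.5 ± 1.92 (n = 3) in Tyrobp-KO and 12.96 ± 1.88 (n = 5) in Q175;Tyrobp-KO, so each library matched its Tyrobp label. All 15 microglial markers were detected in all 18 samples, and Aif1 had the lowest mean among them, at 105 CPM. Markers of other brain cells were also present, among them Slc1a2 of astrocytes (mean 1186 CPM). The astrocytic marker level, a geometric mean of normalized counts over 10 markers, was 677 to 900 in WT and 1263 to 3970 in Q175, and every Q175 sample was above every WT sample in all 25 pairs (exact two-sided permutation test, p = 0.00794, the smallest that 5 against 5 allows; adjusted p = 0.167 over 28 tests).

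Per exonic length, the channels fell into a wide order. Over the 18 samples the mean RPKM (CPM per kilobase of exon) was 47.1 for Clic1, 34.9 for Hvcn1, 25.3 for Kcnj2 and 16.7 for Kcnk13. It was 12.2 for Trpm7, 9.72 for Trpv2, 8.44 for Trpm2, 3.80 for Lrrc8a and 3.43 for Kcna3. A pair of steps in this order held in 18 of 18 samples, Kcnj2 above Kcnk13 and Trpm2 above Lrrc8a. Kcnk13 was above Trpm7 in 17 of 18 samples and Clic1 above Hvcn1 in 16. The remaining neighbours crossed often: Hvcn1 exceeded Kcnj2 in 14 samples, Trpm7 exceeded Trpv2 in 13, Trpv2 exceeded Trpm2 in 13 and Lrrc8a exceeded Kcna3 in 12. With the length of the longest transcript in place of the union of exons, Trpm7 (19.5 RPKM) came above Kcnk13 (16.9 RPKM) and Trpm2 (14.5 RPKM) above Trpv2 (11.9 RPKM). Among 16089 genes with a mean of at least 1 CPM, 96.9% had a lower RPKM than Clic1 and 40.9% a lower RPKM than Kcna3.

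**Figure D1:**
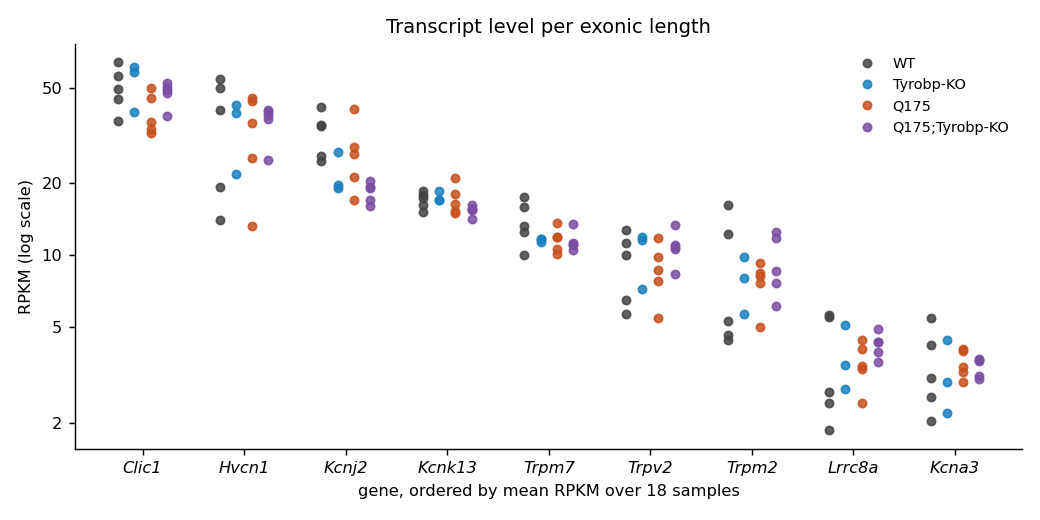
Level of each channel gene in RPKM (log axis) in the 18 samples, 1 point per sample, coloured by genotype group and ordered by the mean over all samples. Clic1, Hvcn1 and Kcnj2 stand highest (means 47.1, 34.9 and 25.3 RPKM), Lrrc8a and Kcna3 lowest (3.80 and 3.43 RPKM), and the points of Hvcn1 and Trpm2 are spread most widely.

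Some of these levels carry a limit from the annotation. Exons of Hvcn1 (chr5:122206804-122242297, GRCm38) overlap those of Tctn1 on the opposite strand, and the library kit did not keep strand. Lrrc8a (chr2:30237715-30263790) shares exons with 1700084E18Rik on the opposite strand and Gm28035 on its own strand, and Trpm2 (chr10:77907722-77970563) holds 2 small RNA genes, Gm22394 and Gm22871. How reads in the shared bases were split was not given in the sources used here, and the counts of these 3 genes are to that extent uncertain. Kcna3 and Lrrc8a also rest on few reads, 63 to 211 and 106 to 511 counts per sample.

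Among the potassium channels, Kcnj2 had the widest range between genotypes. In WT samples 1, 2, 6, 7 and 8 Kcnj2 was at 227, 189, 190.4, 135 and 142 CPM, and in Q175 samples 3, 4, 9, 14 and 17 it was at 116, 145, 92.5, 155 and 223 CPM. In Tyrobp-KO samples 15, 19 and 20 it was at 148, 108 and 105 CPM, and in Q175;Tyrobp-KO samples 5, 11, 12, 13 and 16 at 87.6, 111, 92.9, 104 and 105 CPM. The samples without Tyrobp lay in the lower part of the range and the Q175;Tyrobp-KO samples close together, while Q175 17 and WT 1 were highest and Q175 9 lay among the samples without Tyrobp. The group means were 177 ± 37.9 (SD, n = 5) in WT, 146 ± 49.3 (n = 5) in Q175, 120 ± 24.0 (n = 3) in Tyrobp-KO and 100.2 ± 9.66 (n = 5) in Q175;Tyrobp-KO.

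Kcnk13 was the steadiest member. It was at 55.7, 57.9, 47.5, 54.3 and 50.7 CPM in WT 1, 2, 6, 7 and 8, and at 57.8, 53.0 and 53.0 CPM in Tyrobp-KO 15, 19 and 20. In Q175 3, 4, 9, 14 and 17 it was at 65.8, 56.3, 46.7, 47.7 and 51.3 CPM, and in Q175;Tyrobp-KO 5, 11, 12, 13 and 16 at 44.0, 48.4, 50.7, 48.6 and 48.6 CPM. Every Q175;Tyrobp-KO sample lay below every Tyrobp-KO sample, and in the other 3 comparisons the groups overlapped. The SD of log2(CPM + 1) within groups was 0.13 for Kcnk13, and 1.1% of 16089 genes had a smaller one, against a median of 0.34 over those genes. Kcna3 was low throughout, at 6.61 ± 2.64 CPM in WT, 6.07 ± 2.15 in Tyrobp-KO, 6.73 ± 0.916 in Q175 and 6.51 ± 0.598 in Q175;Tyrobp-KO, and ranged within WT alone from 3.85 to 10.4 CPM.

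The proton channel gene Hvcn1 had the largest spread of the 9 genes within groups. It was at 68.8, 145, 49.98, 194 and 178 CPM in WT 1, 2, 6, 7 and 8, and at 141, 152 and 78.4 CPM in Tyrobp-KO 15, 19 and 20. In Q175 3, 4, 9, 14 and 17 it was at 162, 47.4, 127, 90.8 and 157 CPM, and in Q175;Tyrobp-KO 5, 11, 12, 13 and 16 at 89.3, 142, 132, 145 and 138 CPM. Each genotype held both high and low samples, and the 4 groups overlapped. Its SD within groups was 0.65 on the log2(CPM + 1) scale, and 90.4% of genes had a smaller one.

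Trpv2 followed nearly the same samples. It was at 29.2, 44.9, 25.6, 57.4 and 50.6 CPM in WT 1, 2, 6, 7 and 8 and at 53.4, 51.9 and 32.4 CPM in Tyrobp-KO 15, 19 and 20. It was at 53.2, 24.6, 38.8, 35.0 and 44.0 CPM in Q175 3, 4, 9, 14 and 17, and at 37.4, 48.5, 47.9, 60.2 and 49.6 CPM in Q175;Tyrobp-KO 5, 11, 12, 13 and 16. The 4 samples lowest for Hvcn1, Q175 4, WT 6, WT 1 and Tyrobp-KO 20, were also the 4 lowest for Trpv2. Trpm2 ranged from 55.2 to 203 CPM in WT, 70.7 to 123 in Tyrobp-KO, 62.5 to 116 in Q175 and 76.8 to 156 in Q175;Tyrobp-KO. The spread in WT came from WT 7 (203 CPM) and WT 8 (153 CPM), against 55.2 to 66.1 CPM in the other 3 WT samples. Trpm7 varied less, with an SD within groups of 0.20 on the log2(CPM + 1) scale, and its group means were 157 ± 32.9 CPM in WT, 131 ± 1.72 in Tyrobp-KO, 132 ± 15.3 in Q175 and 130.1 ± 13.4 in Q175;Tyrobp-KO.

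Of the chloride and anion channel genes, Clic1 was at 90.4 ± 19.02 CPM in WT, 96.0 ± 21.1 in Tyrobp-KO, 71.3 ± 14.3 in Q175 and 85.7 ± 9.94 in Q175;Tyrobp-KO. Its samples ran from 65.4 to 115 CPM in WT and from 58.2 to 90.5 CPM in Q175, so that these groups overlapped although Q175 was lower in 20 of 25 pairs. Lrrc8a was at 15.6 ± 7.82 CPM in WT, 16.3 ± 5.21 in Tyrobp-KO, 15.3 ± 3.33 in Q175 and 18.2 ± 2.19 in Q175;Tyrobp-KO. As with Trpm2, WT 7 and WT 8 (23.9 and 24.3 CPM) were well above the other 3 WT samples (7.998 to 11.5 CPM).

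**Figure D2:**
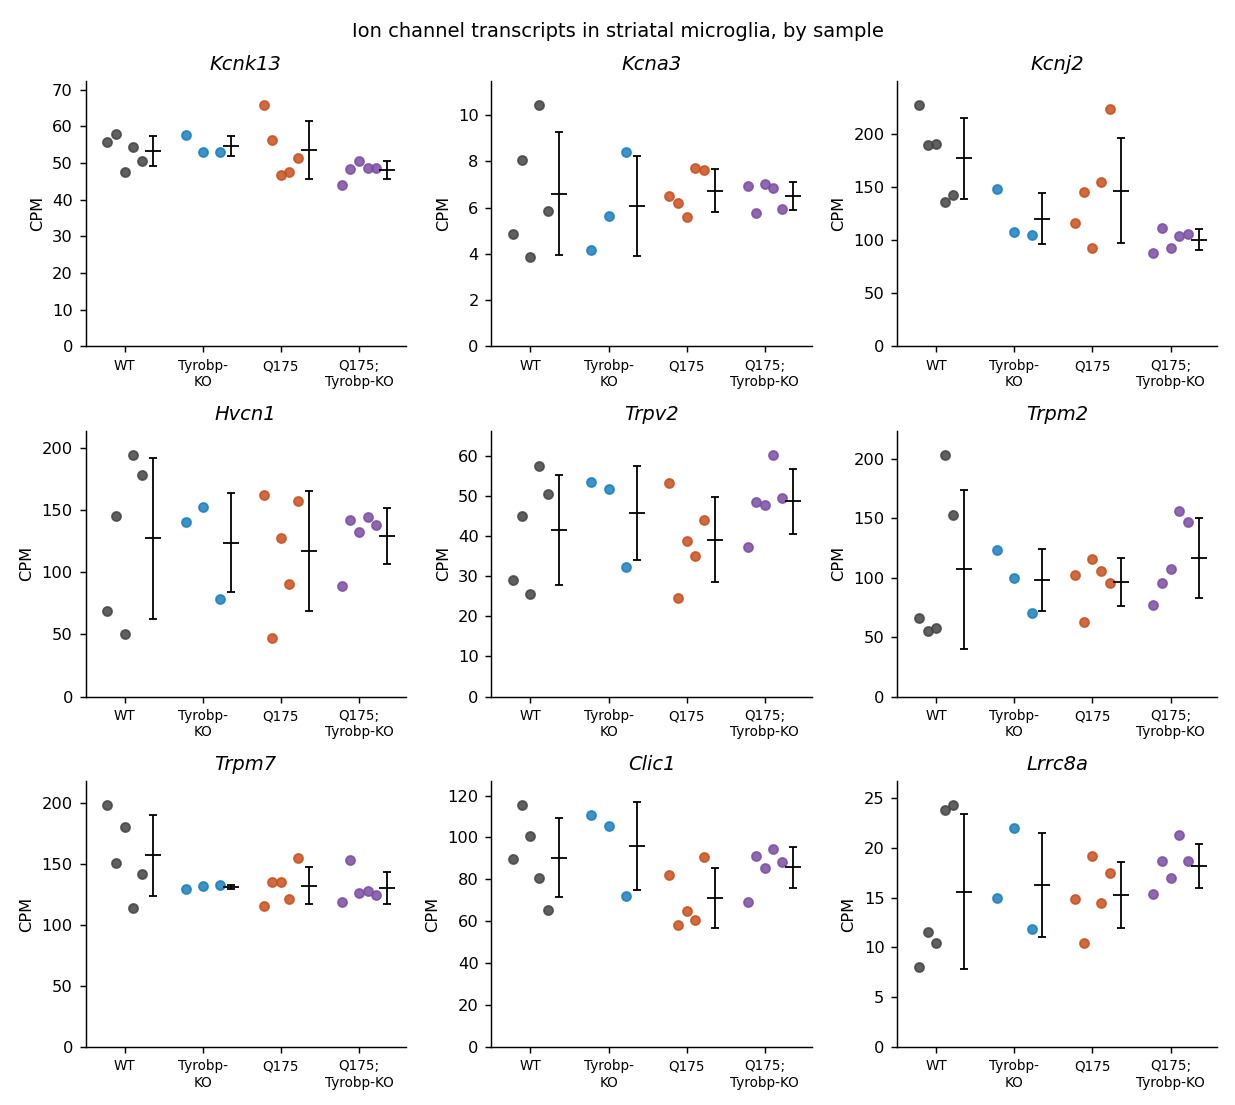
CPM of each channel gene (1 panel per gene, y axis from 0) in each sample, by genotype group. Points are samples, and black marks to the right of each group give its mean and SD. Kcnj2 is lowest in Q175;Tyrobp-KO (87.6 to 111 CPM), Kcnk13 changes little, and Hvcn1, Trpv2, Trpm2 and Lrrc8a spread widely within WT.

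No member passed the test in any of the 4 comparisons of genotypes. Each comparison was fitted to the counts of its own 2 groups by the quasi-likelihood method of edgeR. P-values were adjusted by the Benjamini-Hochberg method over all genes tested, and a gene was called at an adjusted p of 0.1 or less. The methods describe striata being dissociated mouse by mouse, but they give 1 striatum per sample where the labels give 2. The labels do not say that samples came from separate animals, so the p-values measure only the spread between samples.

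The first comparison, Q175 against WT, asks what the Huntington's disease allele changes in microglia that carry Tyrobp. None of 9 members was called, and 0.0% of 18266 genes were (0 by edgeR, 234 by DESeq2). At an unadjusted p under 0.05 there were 1140 genes (6.24%) and 0 members. Clic1 came nearest, at a log2 fold change of -0.31 ± 0.20 (SE; 95% CI -0.74 to 0.12; edgeR adjusted p = 0.960), followed by Trpm7 at -0.22 ± 0.18 and Kcnj2 at -0.24 ± 0.25. The other 6 lay between -0.12 and 0.06. All 9 intervals fell within a 2-fold change either way, the widest being that of Hvcn1, from -0.97 to 0.78. Members reached an unadjusted p under 0.05 only when 1 of 2 samples was left out, Kcnj2 (-0.49) and Clic1 (-0.45) without Q175 17 and Clic1 (-0.43) without WT 8, and the lowest adjusted p of any member in any edgeR or DESeq2 fit was 0.598. No member's groups were free of overlap, against 1.08% of genes. In these bulk samples fewer cells of a type and less RNA per cell cannot be told apart. All 10 astrocytic markers had a higher mean in Q175 than in WT, and the part of astrocytic RNA in the channel values was not tested. A fit with a score of astrocytic, neuronal and oligodendrocytic markers as a term called no member. It moved Hvcn1 from -0.09 to 0.92 and Kcnj2 from -0.24 ± 0.25 to -0.63 ± 0.52 (SE). The score was -0.77 to -0.24 in WT and 0.17 to 1.23 in Q175. Because these ranges do not overlap, that fit cannot separate the score from genotype.

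The second, Q175;Tyrobp-KO against Q175, asks what Tyrobp deletion changes in Q175 mice. None of 9 members was called, against 2 of 18059 genes (0.0111%), Tyrobp itself (log2 fold change -4.45) and St8sia6 (-2.87). Kcnj2 was the 1 member at an unadjusted p under 0.05, where 8.01% of all genes stood. Its log2 fold change was -0.55 ± 0.20 (SE; 95% CI -0.99 to -0.10; edgeR adjusted p = 0.533), and it was lower in 21 of 25 pairs of samples, without the groups separating (0.858% of genes did). It was no longer at an unadjusted p under 0.05 with sex as a term (-0.43), with total counts as the scaling (-0.41) or without Q175 17 (-0.34), and over 10 fits that each left out 1 sample it lay between -0.67 and -0.34. In such fits Trpv2 (0.45 without Q175 3) and Clic1 (0.37 without Q175 17, 0.32 without Q175;Tyrobp-KO 5) also came to an unadjusted p under 0.05, with edgeR adjusted p from 0.277 to 0.440. The 4 fold changes next in size were positive, 0.31 ± 0.19 for Trpv2, 0.27 ± 0.22 for Trpm2, 0.26 ± 0.15 for Clic1 and 0.25 ± 0.17 for Lrrc8a, with edgeR adjusted p from 0.533 to 0.578. Clic1 was higher in 21 of 25 pairs, and Trpv2 and Lrrc8a in 19. The median over the 9 members was 0.14, beside -0.05 over all genes tested. The level of the 15 microglial markers was also higher in Q175;Tyrobp-KO, by 0.27 on the log2 scale and in 19 of 25 pairs. For that level the exact two-sided permutation test gave p = 0.214 (adjusted p = 0.479), and its part in these fold changes was not tested. The level of 6 endothelial markers was 28.6 to 61.1 in Q175;Tyrobp-KO and 56.3 to 72.1 in Q175, lower in 24 of 25 pairs (exact two-sided permutation test, p = 0.0159; adjusted p = 0.167), and its part in these values was not tested.

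In mice with WT Htt (Tyrobp-KO against WT), 0 of 9 members were called, against 4 of 18017 genes (0.0222%), which were Tyrobp, Spp1, St8sia6 and Clec7a, and 0 members stood at an unadjusted p under 0.05 (6.82% of genes). Kcnj2 was at -0.49 ± 0.24 (95% CI -1.01 to 0.04; edgeR adjusted p = 0.777) and lower in 13 of 15 pairs, with overlap between the groups (4.48% of genes had none). It passed an unadjusted p of 0.05 without WT 7 (-0.58) or Tyrobp-KO 15 (-0.68). Trpm7 was lower in 12 of 15 pairs (-0.19 ± 0.21) and Trpv2 higher in 10 of 15 (0.22 ± 0.30). With 3 Tyrobp-KO samples the intervals were wider, and those of 5 of 9 members lay within a 2-fold change either way. All 6 border macrophage markers had a higher mean in Tyrobp-KO than in WT, and their summary level was 28.2 to 29.5 against 11.02 to 18.4, higher in 15 of 15 pairs (exact two-sided permutation test, p = 0.0179, the smallest that 3 against 5 allows; adjusted p = 0.167). Mrc1 was highest among them, at 4.46 to 20.7 CPM. The defining markers Cd163, Lyve1 and Pf4 reached at most 2.49 CPM in any sample, and Lyve1 was at 0 in 3 samples and Pf4 in 1. All 6 monocyte and neutrophil markers and all 10 astrocytic markers also had a higher mean in Tyrobp-KO. Their levels were higher in 12 and 10 of 15 pairs, by 1.54 and 0.70 on the log2 scale. Both had an adjusted p of 0.479 (exact two-sided permutation test). The remaining marker levels were higher by 0.09 to 0.38. The part of all these cells in the channel values was not tested.

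Q175;Tyrobp-KO against Tyrobp-KO, which sets Q175 mice beside controls that also lack Tyrobp, called 0 of 9 members and 0.0% of 17723 genes (0 by edgeR, 680 by DESeq2), while 2343 genes (13.2%) and 0 members stood at an unadjusted p under 0.05. Kcnk13 was lower in 15 of 15 pairs, the 1 member whose groups did not overlap here, and 5.92% of all genes were likewise lower without overlap (9.97% in either direction). Its log2 fold change was small, at -0.21 ± 0.10 (95% CI -0.43 to 0.02; edgeR adjusted p = 0.425). Kcnj2 was at -0.28 ± 0.14 and lower in 12 of 15 pairs (edgeR adjusted p = 0.443), and without Tyrobp-KO 15 it was at -0.08. At an unadjusted p under 0.05 stood Kcnj2 (-0.37) and Clic1 (-0.36) without Tyrobp-KO 20 and Lrrc8a (0.44) without Tyrobp-KO 19. All 6 border macrophage markers had a lower mean in Q175;Tyrobp-KO than in Tyrobp-KO.

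**Figure D3:**
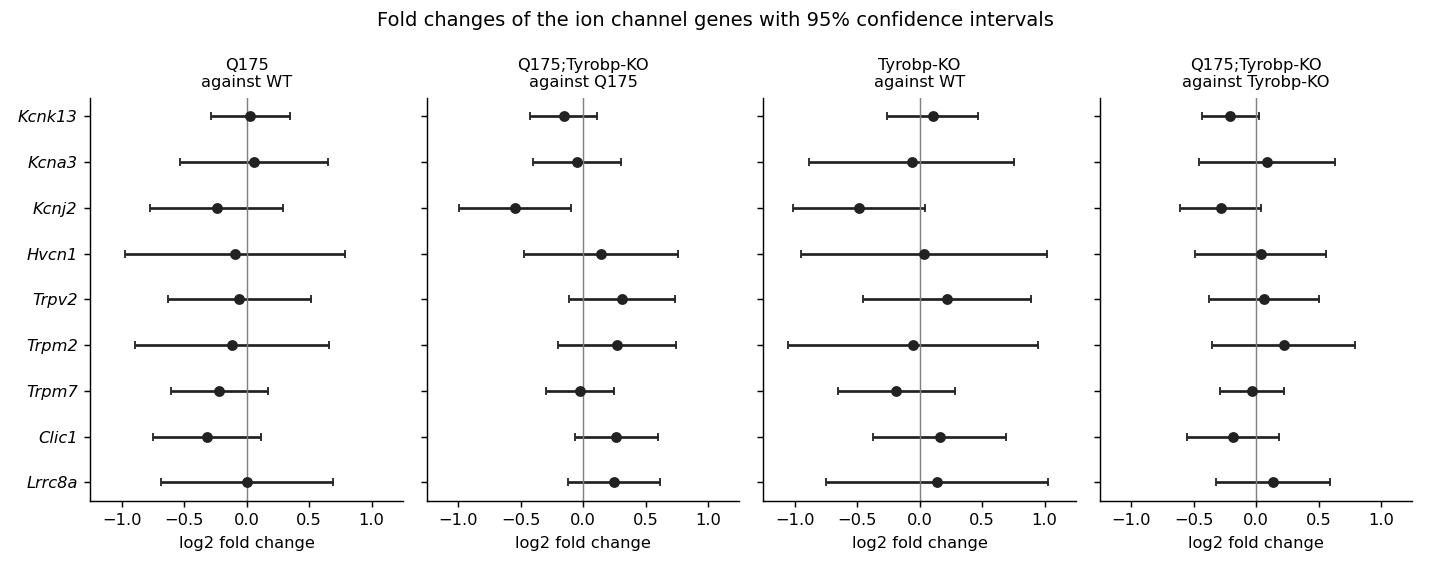
Log2 fold change of each channel gene (points) with its 95% confidence interval (bars) in the 4 comparisons of genotypes, from edgeR. Of the 36 intervals, that of Kcnj2 in Q175;Tyrobp-KO against Q175 (-0.99 to -0.10) does not reach 0.

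The interaction, which asks whether the effect of Q175 differs with and without Tyrobp, called 0 of 9 members and 0.0% of 18613 genes (0 by edgeR, 2 by DESeq2; 1118 genes, 6.01%, and 0 members at an unadjusted p under 0.05). For Kcnj2 it was 0.01 ± 0.31 on the log2 scale (95% CI -0.64 to 0.67), and it was largest for Trpm2, at 0.40 ± 0.51. The intervals of 6 of 9 members lay within a 2-fold difference. Because the Kcnj2 means were lower without Tyrobp in both Htt genotypes, the effect of the deletion averaged over both was fitted on all 18 samples, a contrast added after these values had been seen. Kcnj2 was at -0.55 ± 0.16 (95% CI -0.88 to -0.22; edgeR adjusted p = 0.265), the 1 member at an unadjusted p under 0.05, where 9.19% of 18613 genes stood. No member was called, against 37 genes (0.199%), and without Tyrobp-KO 20 the count was 592 genes and 0 members. Leaving out any 1 sample kept Kcnj2 between -0.64 and -0.45, and without Tyrobp-KO 20 Clic1 (0.32) was also at an unadjusted p under 0.05. The adjusted p of Kcnj2 in this contrast was 0.115 with DESeq2. The other 8 members lay between -0.14 and 0.23.

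A larger part of the variation ran across samples within genotypes, and 4 members shared it. Hvcn1, Trpv2, Trpm2 and Lrrc8a rose and fell together over the 18 samples. Each was more like genes outside the list than like any other member, as given below. Pearson's r of log2(CPM + 1) was 0.95 for Hvcn1 with Trpv2 and 0.85 for Trpm2 with Lrrc8a, and the other 4 pairs lay between 0.72 and 0.80. After each group's mean was taken out, the 6 values were 0.97, 0.84 and, for the other 4, 0.72 to 0.80. Spearman's rho ran from 0.55 to 0.82 over the 6 pairs, and by rank 5 of 6 had an adjusted permutation p of 0.1 or less, the exception being Hvcn1 with Trpm2 (rho 0.55, adjusted permutation p = 0.105). Leaving out the 2 samples farthest from the median of Trpv2 (WT 6 and Q175 4) left r at 0.90 for Hvcn1 with Trpv2, and leaving out the 2 farthest for Lrrc8a (WT 1 and Q175 4) left r at 0.85 for Trpm2 with Lrrc8a. Of the 36 pairs of members, adjusted together, all 6 pairs of these 4 genes had an adjusted permutation p of 0.1 or less for Pearson's r both over all samples (0.00036 to 0.00372) and within groups (0.00036 to 0.0545). For Hvcn1 with Trpv2 the unadjusted p was the smallest that 100000 permutations can give. Trpm7 ran against the block, with r from -0.56 to -0.43, but none of these relations had an adjusted permutation p of 0.1 or less within groups. Without WT 1 and WT 6, r with Trpm7 was 0.05 for Hvcn1, -0.12 for Trpv2 and -0.39 for Trpm2. For Lrrc8a it was -0.36 without WT 1 and Q175 4.

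**Figure D4:**
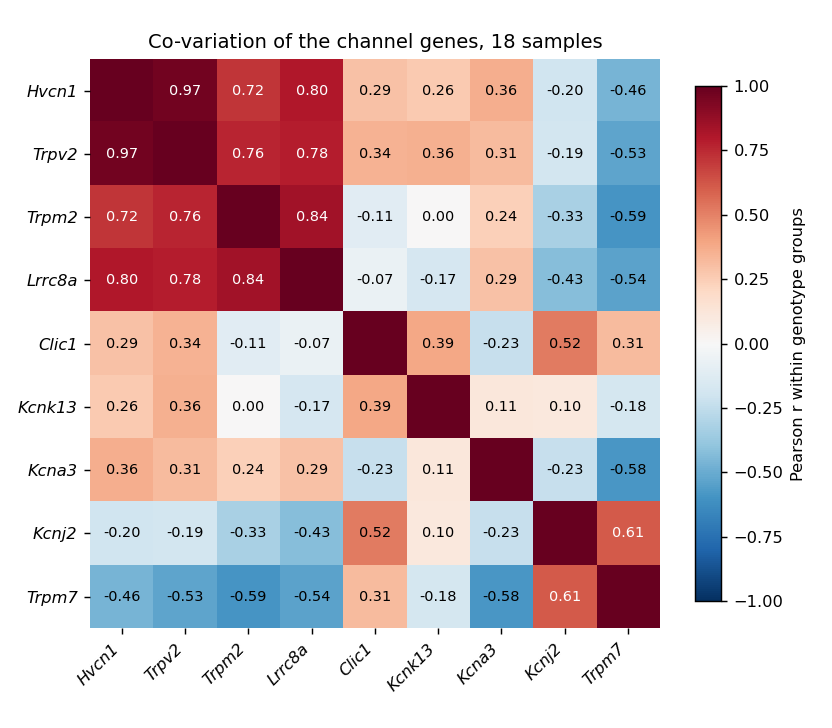
Pearson's r between the channel genes over the 18 samples, on log2(CPM + 1) with each genotype group's mean taken out. Hvcn1, Trpv2, Trpm2 and Lrrc8a form a block with r from 0.72 to 0.97, Kcnj2 and Trpm7 vary together (0.61), and Kcnk13 has no r above 0.39.

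The promoters of the 3 genes of this block that are in the RefSeq table are printed because their transcripts moved together, each with 250 bases before and 50 after an annotated start (GRCm38.p6), beside that of Kcnj2, which varied otherwise. Of the 9 members 8 were in the table, and Hvcn1 was not. The motif searched was GAGGAAGT on both strands, a sequence bound by the myeloid factor PU.1, and matches are in capitals. Of the 3 starts listed for Trpv2 it was present at 2, whose windows overlap and hold the same 1 site. The first of these windows is printed. The motif was in no promoter of the other members in the table, Hvcn1 not being searched, and in 3.2% of 32851 promoters of the same length. The windows are chr11:62574236-62574535 (plus strand) for Trpv2, chr10:77969823-77970122 (minus strand) for Trpm2, chr2:30237519-30237818 (plus strand) for Lrrc8a and chr11:111065914-111066213 (plus strand) for Kcnj2. Bases G and C made up 53.0% of that of Trpv2, 58.3% for Trpm2, 70.0% for Lrrc8a and 66.7% for Kcnj2, against a median of 52.7% over all promoters.
Trpv2: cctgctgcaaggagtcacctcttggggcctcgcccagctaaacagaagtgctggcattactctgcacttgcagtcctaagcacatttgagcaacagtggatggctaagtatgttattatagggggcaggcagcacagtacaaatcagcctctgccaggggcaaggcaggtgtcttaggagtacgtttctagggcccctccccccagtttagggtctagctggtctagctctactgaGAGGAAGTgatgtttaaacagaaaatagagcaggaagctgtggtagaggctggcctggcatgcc
Trpm2: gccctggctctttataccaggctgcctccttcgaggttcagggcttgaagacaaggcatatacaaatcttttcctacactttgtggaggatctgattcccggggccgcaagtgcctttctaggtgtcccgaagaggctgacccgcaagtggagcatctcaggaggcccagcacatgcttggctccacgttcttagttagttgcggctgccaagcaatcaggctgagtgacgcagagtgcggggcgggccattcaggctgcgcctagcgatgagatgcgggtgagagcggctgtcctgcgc
Lrrc8a: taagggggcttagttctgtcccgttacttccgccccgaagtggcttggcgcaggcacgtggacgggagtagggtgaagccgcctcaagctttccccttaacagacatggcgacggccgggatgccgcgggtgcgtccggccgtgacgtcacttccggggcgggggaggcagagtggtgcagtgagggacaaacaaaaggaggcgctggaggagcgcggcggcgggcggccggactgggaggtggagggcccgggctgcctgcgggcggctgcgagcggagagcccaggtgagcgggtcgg
Kcnj2: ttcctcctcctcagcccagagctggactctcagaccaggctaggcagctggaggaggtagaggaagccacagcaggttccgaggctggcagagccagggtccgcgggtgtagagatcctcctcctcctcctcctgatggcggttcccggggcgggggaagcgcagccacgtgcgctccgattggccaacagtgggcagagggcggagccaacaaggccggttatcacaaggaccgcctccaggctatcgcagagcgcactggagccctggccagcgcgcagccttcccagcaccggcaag

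The same 4 members and Clic1 followed the level of the microglial markers, a geometric mean of normalized counts over 15 genes. How many of all genes followed this level was not counted, so the relation is not shown to be particular to the channels. Of 18 relations tested (9 members with the microglial level and with a non-microglial score, the mean of the standardised astrocytic, neuronal and oligodendrocytic levels), 6 had an adjusted permutation p of 0.1 or less. With the microglial level, r was 0.89 for Trpv2 (rho 0.84, adjusted permutation p = 0.000180), 0.85 for Hvcn1 (rho 0.70, p = 0.000450), 0.67 for Clic1 (rho 0.61, p = 0.0110), 0.64 for Lrrc8a (rho 0.62, p = 0.0174) and 0.57 for Trpm2 (rho 0.53, p = 0.0412). Without the 2 samples farthest from the median microglial level (Q175 4 and Q175 14), these r were 0.86, 0.78, 0.48, 0.61 and 0.57, and within groups they were 0.90, 0.90, 0.62, 0.66 and 0.60. Over all samples Clic1 was the 1 member that passed with the non-microglial score, at r = -0.60 (rho -0.56, adjusted permutation p = 0.0319; -0.49 without Tyrobp-KO 20 and Q175 14). Within groups Clic1 (-0.50, adjusted permutation p = 0.0734), Trpv2 (-0.44, 0.0734) and Hvcn1 (-0.42, 0.0518) were all at 0.1 or less. Kcnk13 (r = 0.14), Kcna3 (0.03), Kcnj2 (-0.16) and Trpm7 (-0.22) did not pass that threshold with the microglial level. With total counts as the scaling 9 relations passed, among them Kcnk13 with the microglial level (0.70, adjusted permutation p = 0.00441) and, with the score, Kcnk13 (-0.51, 0.0615) and Trpm7 (-0.56, 0.0351). The 4 samples lowest for Hvcn1 had microglial levels of 8617 (Q175 4), 11906 (WT 6), 12074 (WT 1) and 12665 (Tyrobp-KO 20), against 11551 to 19573 in the other 14. Their libraries held 11260410 counts (Q175 4) and 18722725 to 18795365 counts (the other 3), so by total counts only Q175 4 was shallow. Genes with a count were fewest of the 18 samples in WT 6 (22386) and WT 1 (23070). They numbered 23365 in Q175 4 and 24036 in Tyrobp-KO 20, against 23310 to 25914 in the other 14. The part of this difference in the channel values was not tested. Kcnj2 and Trpm7 formed a second pair, with r = 0.68 (adjusted permutation p = 0.00905), 0.61 within groups and 0.46 without WT 1 and WT 6. By rank this pair did not pass 0.1, at rho 0.52 (adjusted permutation p = 0.127).

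**Figure D5:**
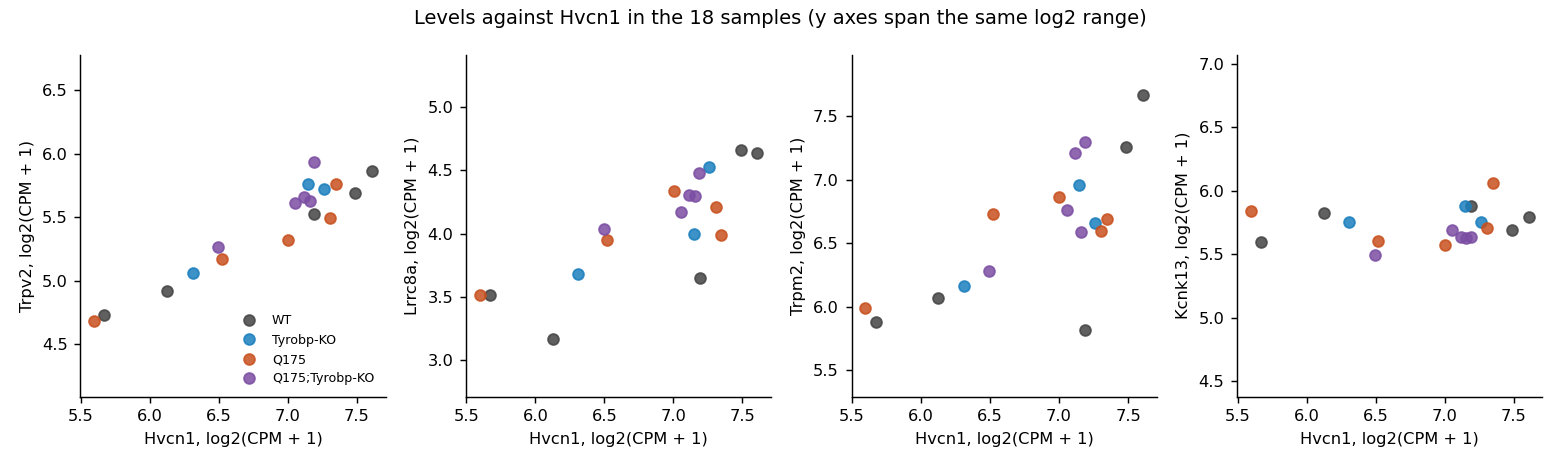
Level of Trpv2, Lrrc8a, Trpm2 and Kcnk13 against that of Hvcn1, each as log2(CPM + 1), in the 18 samples coloured by genotype group. The y axes span the same log2 range. Trpv2 follows Hvcn1 closely (r = 0.95), Lrrc8a (0.80) and Trpm2 (0.72) less so, with WT 2 low for both, and Kcnk13 stays flat (0.15).

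The 3 genes most like each member over the 18 samples were read from among 16089, and no other member was among them. Hvcn1 was most like Itgb2 (r = 0.98), Arl4c and Arpc1b (both 0.97), the first an integrin subunit of leukocytes and the last a subunit of the actin-nucleating complex. Trpv2 was most like Tifab and Lrrc3 (0.98), Trpm2 like Stab1 (0.97), Plcb2 and Pik3cd (0.96), and Lrrc8a like Plcb3, Tmem104 and Bag3 (0.95). Kcnj2 was most like the hypoxia factor gene Hif1a (0.94), the receptor gene Tlr1 (0.93) and the chemokine gene Ccl3 (0.91). Trpm7 was most like Phf20l1, Gm49336 and Tent2 (0.93 to 0.94), and Clic1 like Tmem173, Arhgdib and Acsl5 (0.92 to 0.95). Kcnk13 (Dpp7, Csrp2 and Perp, 0.71 to 0.73) and Kcna3 (Zscan2, Sh3bp4 and Tubb6, 0.78 to 0.80) had no gene above 0.80. These values are the highest of many and are given as a description. Group means were not taken out, so differences between genotypes enter them. Ccl3 was itself called in the contrast averaged over both Htt genotypes (log2 fold change -1.83, edgeR adjusted p = 0.00669).

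Other channel genes and partners, 66 in 5 lists, were read beside the members, and 0 of the 60 tested were called by edgeR in any of the 4 comparisons or the interaction. DESeq2 called 3 in Q175 against WT (Trpm3, Trpc6 and Kcnj16, all higher), 0 in Q175;Tyrobp-KO against Q175, 2 in Tyrobp-KO against WT (Kcnj16 higher, Cacna1d lower), 3 in Q175;Tyrobp-KO against Tyrobp-KO (Cacna1d higher, Casp1 and Cybb lower) and 0 in the interaction, with DESeq2 adjusted p from 0.0133 to 0.0999. In the same order, DESeq2 called 234 of all 18266 genes tested, 41 of 18059, 168 of 18017, 680 of 17723 and 2 of 18613. Whether the relatives exceeded these shares was not tested. The genes named in the rest of this paragraph were chosen after their values were seen. Of 14 other potassium channel genes, Kcnk6 was the most abundant per length (37.2 RPKM), above Kcnj2 (25.3), and the THIK relative Kcnk12 was at 3.50 RPKM. Among the partners of Lrrc8a in the volume-regulated channel, Lrrc8d was at 5.83 RPKM, Lrrc8b at 4.17 and Lrrc8c at 1.04, and Lrrc8e had a mean of 0.00331 CPM. Among 10 other TRP genes the lysosomal Mcoln1 (8.49 RPKM) was close to Trpm2 (8.44) and Trpv1, Mcoln2 and Mcoln3 reached at most 0.295 CPM in any sample. Of 16 calcium-entry, ligand-gated and other cation channel genes, Tmem63a (38.7 RPKM) and P2rx7 (25.6 RPKM) were highest, in the range of Hvcn1 and Kcnj2.

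Relatives of the members at an unadjusted p under 0.05 by edgeR are given as a description. For the 4 comparisons and the interaction, those named are all of the 60 tested that stood at this level. The share of all genes is given beside them, and whether the lists exceeded it was not tested. In Q175 against WT 6.24% of all genes stood there, 1000 of 1140 of them higher in Q175, and the relatives were also all higher, 3 of 12 other potassium channel genes tested (Kcna2 at a log2 fold change of 0.82, Kcnab2 at 1.39, Kcnj16 at 1.62), 2 of 7 TRP genes (Trpm3 at 2.07 and Trpc6 at 2.26), Clic6 at 2.59 and Itpr1 at 1.11, with adjusted p from 0.345 to 0.661 in the edgeR test, beside the astrocytic marker level that was also higher in Q175; the part of other cell types in these 7 genes was not tested. In Q175 (n = 5) the SD exceeded the mean for Trpm3 (96.9 ± 100.6 CPM), Clic6 (6.65 ± 8.28 CPM) and, narrowly, Trpc6. The Q175 means of these genes therefore rest unevenly on the samples. For Kcna2, Kcnab2, Kcnj16 and Itpr1 the SD in Q175 was below the mean. In Q175;Tyrobp-KO against Q175 (8.01% of all genes), Kcnab1 (-1.14), Kcna5 (-1.06) and Trpv4 (-0.86) were lower. In Tyrobp-KO against WT (6.82%), Tmem63a, a mechanosensitive cation channel gene, was at -0.46 and the calcium channel gene Cacna1d at -0.82. Trpc6 and Kcnj16 were at 2.38 and 2.19, but in Tyrobp-KO (n = 3) their SD exceeded the mean. These were 4.92 ± 7.32 CPM for Trpc6 and 12.1 ± 13.2 CPM for Kcnj16, so the means rest unevenly on the 3 samples. In Q175;Tyrobp-KO against Tyrobp-KO (13.2%, with 1460 of 2343 lower), Tmem63a was at 0.32, Cacna1d at 0.54 and Lrrc8d at 0.38, while Orai3 was at -0.35. In that comparison 4 of 12 signalling and oxidase partners of the channels were lower at this level, P2ry12, a receptor upstream of THIK-1 that is also 1 of the microglial markers, at -0.43, the oxidase subunits Cybb and Cyba at -1.04 and -0.36, and Casp1 at -0.62, with adjusted p from 0.291 to 0.339 in the edgeR test. Hvcn1, which serves the same oxidase, was at 0.04 there. The level of 6 monocyte and neutrophil markers was higher in Q175;Tyrobp-KO in 1 of 15 pairs (log2 difference -1.27). That of 6 border macrophage markers was higher in 0 of 15 (-0.94). The part of these cells in the values of Cybb, Cyba, Casp1 and P2ry12 was not tested. The interaction (6.01% of all genes) was above 0 for Tmem63a (0.45), Tpcn2 (0.52), Ano10 (0.57) and Cacna1d (0.86) at this level. It was below 0 for Trpc6 (-3.50) and Kcnj16 (-2.42), whose Tyrobp-KO values had an SD above the mean. Each of these genes had an edgeR adjusted p of 0.716. In the contrast averaged over both Htt genotypes Tmem63a (-0.30), Cacna1d (-0.46), Stim1 (-0.22) and Clcn7 (-0.27) were lower and Kcnk12 (0.51) higher without Tyrobp, with edgeR adjusted p from 0.355 to 0.527.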

How the data were processed

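Bulk RNA-seq was made from CD11b-selected striatal microglia of 18 samples with the SMART-Seq v4 kit, which does not keep strand. Per the labels and methods, the authors used STAR for alignment and featureCounts for gene-level counting, and the deposited values are raw counts. The methods name the mouse build GRCm38 and the submitters' processing notes GRCh38, and the identifiers are mouse Ensembl genes. Columns with no sample in the labels (2) were not used.

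Each comparison was fitted with edgeR 4.0.16 (R 4.3.3; TMM scaling, quasi-likelihood test, a minimum of 1 CPM in 1 or more samples, false discovery rate 0.1) on its 2 groups, the interaction on all 4. The authors' tool, DESeq2 (here 1.42.0), was an alternative, beside other scalings, filters, terms for sex and for non-microglial markers, and leaving out each sample. The fit averaging the deletion over both Htt genotypes and the pair correlations under other scalings were added after the data were seen. RPKM used the union of exons, correlations log2(CPM + 1) with 100000 permutations (numpy 2.4.6, scipy 1.17.1), and intervals a 95% level. The script was tested on simulated data. Members, gene lists and tests were chosen with earlier results of these data known. Named beside the 9 members were related genes that were called or at an unadjusted p under 0.05, the markers with the highest and lowest mean, and the 3 genes most correlated with each member; others are said to be chosen after their values were seen. Some genes that this rule names are not reported here. Labels give 2 striata per sample and the methods 1. Counts ran from 11260410 to 29771983 per sample.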

Additional observations from a re-analysis of the deposited data

Results flagged for a closer look

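Of 48 sets of values from groups of 5 samples (27 of them channel genes), 6 held a sample set apart from the other 4 by Dixon's criterion, and chance gives about 1 in 20 sets. Hvcn1 was at 89.3 CPM in Q175;Tyrobp-KO 5, against 132 to 145 CPM in the other 4 samples of that group. Trpm7 was at 153 CPM in Q175;Tyrobp-KO 11, against 119 to 128 CPM. The other 4 were marker levels. The astrocytic level was 3970 in Q175 14, against 1263 to 1785 in the rest of Q175. The oligodendrocytic level was 7253 in Q175 17, against 3370 to 4400. The level of monocyte and neutrophil markers was 249 in WT 6, against 7.62 to 73.0 in the other WT samples, and 149 in Q175;Tyrobp-KO 13, against 48.5 to 67.1. The part of these cells in the channel values of those samples was not tested.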

How the results depend on the processing

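No member was called in any comparison under any alternative, and of the member log2 fold changes refitted under settings other than leaving out a sample 435 kept their sign and 33 did not. With DESeq2 the genes called were 234 in Q175 against WT, 41 in Q175;Tyrobp-KO against Q175, 168 in Tyrobp-KO against WT, 680 in Q175;Tyrobp-KO against Tyrobp-KO, 2 in the interaction and 204 in the averaged contrast. In Q175;Tyrobp-KO against Q175 the genes called were 9 with no filter, 15 in 1 fit over 4 groups, and 1 at a false discovery rate of 0.05, with sex as a term or with the score of non-microglial markers. In Tyrobp-KO against WT they were 15 with no filter and 8 in the 4-group fit, and in the averaged contrast 59 with the score. Members at an unadjusted p under 0.05 were 0 in Q175;Tyrobp-KO against Q175 with total counts or sex, 1 in Tyrobp-KO against WT with DESeq2 or the 4-group fit, and 1 in Q175;Tyrobp-KO against Tyrobp-KO with the score. Signs turned as follows, on the log2 scale. In Q175 against WT, total counts gave Kcnk13 -0.049, Kcna3 -0.034 and Lrrc8a -0.093, and sex gave Kcnk13 -0.049, Kcna3 -0.26 and Lrrc8a -0.081. The score, which did not overlap between those groups, gave Hvcn1 0.92, Trpv2 0.51 and Trpm2 0.35. Lrrc8a there was -0.029 with DESeq2, -0.027 with its size factors, -0.041 with no filter and -0.025 in the 4-group fit. For Q175;Tyrobp-KO against Q175, total counts gave Kcna3 0.080 and Trpm7 0.11, and the score gave Kcna3 0.0047 and Hvcn1 -0.019. In Tyrobp-KO against WT, Hvcn1 was -0.041 in the 4-group fit and -0.028 with sex, and Trpm2 0.19 with the score. For Q175;Tyrobp-KO against Tyrobp-KO, sex gave Hvcn1 -0.053 and Trpv2 -0.011, and Trpm7 was 0.049 with total counts and 0.0041 with no filter. In the interaction Kcnj2 was -0.0092 with DESeq2, -0.0093 with its size factors, -0.061 with no filter and -0.045 with the score, and the score gave Hvcn1 -0.20, Trpv2 -0.081, Clic1 -0.014 and Lrrc8a -0.018. In the averaged contrast total counts gave Kcnk13 0.020. With total counts 2 marker differences stood at an unadjusted p under 0.05, against 4, and the correlations with the microglial level were 0.12 for Kcnj2, 0.35 for Trpm7 and 0.70 for Kcnk13 (0.14 with the scaling of edgeR). Of 18 relations 9 then had an adjusted permutation p of 0.1 or less, against 6, with Trpm7 (-0.56) and Kcnk13 (-0.51) joining Clic1 on the non-microglial score. The median of the microglial markers differed by 0.0035 between Q175 and WT, and with the longest transcript 5 of 9 members kept their place in the order of levels. Leaving out 1 sample at a time gave 1 to 5 genes called in Q175;Tyrobp-KO against Q175 (5 without Q175 9), 2 to 8 in Tyrobp-KO against WT (8 without WT 6, 2 without Tyrobp-KO 15 or 19) and 22 to 592 in the averaged contrast (592 without Tyrobp-KO 20, 83 without Q175 17). Members at an unadjusted p under 0.05 then numbered 0 to 2 in Q175 against WT, 1 to 2 in Q175;Tyrobp-KO against Q175, 0 to 1 in Tyrobp-KO against WT, 0 to 2 in Q175;Tyrobp-KO against Tyrobp-KO and 1 to 2 in the averaged contrast. Ranges of log2 fold changes that crossed 0 were, in Q175 against WT, Hvcn1 -0.30 to 0.11, Kcna3 -0.089 to 0.25, Kcnk13 -0.049 to 0.061, Lrrc8a -0.16 to 0.21, Trpm2 -0.29 to 0.22 and Trpv2 -0.20 to 0.078. Those of Q175;Tyrobp-KO against Q175 were Hvcn1 -0.053 to 0.28 and Trpm7 -0.089 to 0.038, and those of Tyrobp-KO against WT Hvcn1 -0.19 to 0.26, Kcna3 -0.35 to 0.15, Lrrc8a -0.16 to 0.37 and Trpm2 -0.26 to 0.28. Those of Q175;Tyrobp-KO against Tyrobp-KO were Hvcn1 -0.21 to 0.23, Kcna3 -0.11 to 0.38, Lrrc8a -0.049 to 0.44, Trpm7 -0.078 to 0.0019 and Trpv2 -0.14 to 0.21. In the interaction they were Clic1 -0.029 to 0.29, Hvcn1 -0.084 to 0.38, Kcna3 -0.15 to 0.33, Kcnj2 -0.12 to 0.22, Lrrc8a -0.035 to 0.46 and Trpv2 -0.057 to 0.30, and in the averaged contrast Hvcn1 -0.051 to 0.22, Kcna3 -0.19 to 0.027, Kcnk13 -0.082 to 0.0030 and Trpm2 -0.025 to 0.26. The microglial level differed by -0.22 to 0.022 in Q175 against WT and by -0.31 to 0.0021 in Q175;Tyrobp-KO against Tyrobp-KO. The cause of these changes was not tested. No paired analysis was possible because the groups share no replicate number. In Tyrobp-KO against WT a 2-fold change lay inside the 95% interval of 4 of 9 members, and the comparisons share groups, so their values are not independent.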
